A study of Mus musculus with 6 samples.

Results

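The genes described here are 38 genes of the G2 phase and of mitosis, fixed as a list of symbols: cyclins and Cdk1, mitotic kinases, kinesins, kinetochore and centromere proteins, chromosomal passenger subunits, anaphase regulators and spindle and cytokinesis proteins. The list was chosen with earlier results of these data known. Each was found among the 23406 gene symbols of the deposited tables, and all 38 passed the filter on low values that left 12266 genes for testing, so none dropped out. The samples were mouse embryonic fibroblasts carrying OSKM, the factors Oct4, Sox2, Klf4 and Myc that turn fibroblasts into induced pluripotent stem cells, taken at day 7 of reprogramming and their ribosome-depleted total RNA was sequenced. WT cells had both Adar1 alleles floxed (Fl/Fl) and received vehicle (n = 2 libraries). KO cells were also Fl/Fl but received 4OHT, 4-hydroxytamoxifen, the usual inducer of Cre recombinase (n = 2). HET cells had 1 floxed allele and 1 E861A allele, a change known to abolish RNA editing by ADAR1, and received vehicle (n = 1). MUT cells shared the alleles of HET but received 4OHT (n = 1). Every group thus carried at least 1 floxed allele and OSKM; the sources used here do not give the source of Cre, the deleted exons or whether replicates were separate cultures. The p-values therefore describe the spread of libraries, which may be technical. No library with 4OHT and intact Adar1 was analysed here, so effects of 4OHT or Cre cannot be told apart from those of the alleles.

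Values are FPKM from the authors, a unit that scales fragments to transcript length and library size. How library size was taken was not stated, and read depth is unknown. Adar stood at 19.6 and 19.5 FPKM in WT, 34.2 and 31.3 in KO, 17.0 in HET and 33.0 in MUT. The gene-level value was thus higher, not lower, in KO and MUT, and it does not check the deletion, so every direction below is that of the libraries as labelled. Differences are given on the log2(FPKM + 1) scale, which understates the change of low genes, and were tested in KO against WT with limma across all tested genes (two-sided, Benjamini-Hochberg adjusted). Rows without a gene name held 9.62% and 10.2% of all FPKM in WT, 11.4% and 14.2% in KO, 8.26% in HET and 8.55% in MUT. Across all tested genes the median difference was 0.02 in KO against WT and 0.01 in MUT against HET.

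Mitosis is driven by Cdk1 bound to cyclins A and B. Their RNAs, with those of the kinases, motors and kinetochore proteins they act with, accumulate in G2 and are low in G1 and resting cells. The level of such transcripts in a bulk sample thus depends in part on how many cells are in G2 and mitosis. Many of these genes share promoter elements: CCAAT boxes, bound by NF-Y, and the cell cycle homology region, typically TTTGAA, bound by the LIN54 subunit of the DREAM complex (which represses them in resting cells) and of its activating counterpart with MYBL2 and FOXM1. When the checkpoint is satisfied, the anaphase-promoting complex marks cyclin B and securin for destruction and cells exit mitosis.

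The promoters of these genes are shown first because the genes moved together. RefSeq start windows (GRCm38.p6, 250 bases before to 50 after the start) were matched by symbol for 31 of the 38. Below are the 120 bases before the start, read 5′ to 3′ on the gene's strand, for the 6 cyclin, Cdk1 or kinase genes whose window held both motifs. Ube2c and Pttg1 were added after their values were seen, as a strongly and the least changed member. Capitals mark CCAAT (or ATTGG on the other strand) and TTTGAA (or TTCAAA).
Ccnb2 (chr9:70421555-70421674, minus strand): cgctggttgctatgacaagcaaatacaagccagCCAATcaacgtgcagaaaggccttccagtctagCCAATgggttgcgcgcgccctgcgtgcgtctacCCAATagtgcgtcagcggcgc
Cdk1 (chr10:69352913-69353032, minus strand): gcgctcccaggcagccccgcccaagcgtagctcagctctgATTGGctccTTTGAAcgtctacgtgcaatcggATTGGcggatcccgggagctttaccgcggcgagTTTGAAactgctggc
Plk1 (chr7:122159315-122159434, plus strand): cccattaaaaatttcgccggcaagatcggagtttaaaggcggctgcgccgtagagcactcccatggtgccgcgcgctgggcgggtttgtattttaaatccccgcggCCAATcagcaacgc
Aurka (chr2:172370571-172370690, minus strand): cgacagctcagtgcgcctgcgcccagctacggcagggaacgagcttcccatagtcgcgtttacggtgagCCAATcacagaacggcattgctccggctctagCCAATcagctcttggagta
Ttk (chr9:83834569-83834688, plus strand): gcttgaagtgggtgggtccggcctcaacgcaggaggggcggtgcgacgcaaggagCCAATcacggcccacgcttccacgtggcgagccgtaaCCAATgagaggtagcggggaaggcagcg
Bub1b (chr2:118598091-118598210, plus strand): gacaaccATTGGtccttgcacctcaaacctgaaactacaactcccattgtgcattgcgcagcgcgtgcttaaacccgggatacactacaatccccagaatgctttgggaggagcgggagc
Ube2c (chr2:164769809-164769928, plus strand): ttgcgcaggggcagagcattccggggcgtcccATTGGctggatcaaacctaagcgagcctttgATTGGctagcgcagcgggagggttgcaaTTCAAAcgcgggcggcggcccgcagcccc
Pttg1 (chr11:43425982-43426101, minus strand): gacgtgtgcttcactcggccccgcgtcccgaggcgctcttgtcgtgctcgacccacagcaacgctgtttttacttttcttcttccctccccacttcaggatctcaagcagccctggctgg

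CCAAT on either strand was found in 23 of 31 windows (74.2%), against 38.7% of the 9683 tested genes with a window, and TTTGAA on either strand in 22 of 31 (71.0%), against 11.5%. Both were found in 19 of 31 (61.3%), against 4.9%. TTTGAA lay within 50 bases of the start in 20 of 31 (64.5%), against 2.9%. In Cdk1 it begins 15 bases before the start, downstream of CCAAT matches at 80 and 48 bases before it. In Ccnb2, Plk1, Aurka, Ttk and Bub1b a TTTGAA begins after the start, at positions 5, 31, 33, 8 and 41, and so lies outside the printed stretch. A pair of CCAAT matches 25 to 40 bases apart, a spacing chosen after these windows were seen, was found in 12 of 31 (38.7%), against 5.5%; Ccnb2, Cdk1, Aurka and Ttk show such pairs above. The related TTCGAA was found in 3 of 31 windows (9.7%, against 2.0%) and the E2F-type GCGGGAA in 0 of 31 (against 8.6%), both strands counted. A match was counted also where it shares bases with a match of another motif. The 19 members with both CCAAT and TTTGAA had a median KO minus WT difference of -2.25 (range -2.88 to -1.51), the 7 with 1 of them -1.96 (-3.03 to -1.34) and the 5 with neither (Birc5, Kif18a, Nuf2, Nusap1 and Pttg1) -2.21 (-2.34 to -0.95). The ranges overlapped, and members with and without these letters were not separated by the size of the fall. The RefSeq start lay 270 bases from the 5′ end of the gene in GENCODE M21 for Pttg1, 328 for Kif4, 2394 for Cdca8 and 3867 for Kif2c. For Cdca8 the deposited row begins, on its strand, at the RefSeq start. The windows of Pttg1, Kif4 and Kif2c may not hold the start used here. The Pttg1 row reaches 43426312, so the stretch printed above lies inside the row and does not show the bases before it. A match is a stretch of letters and was not tested as a site.

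**Figure D1:**
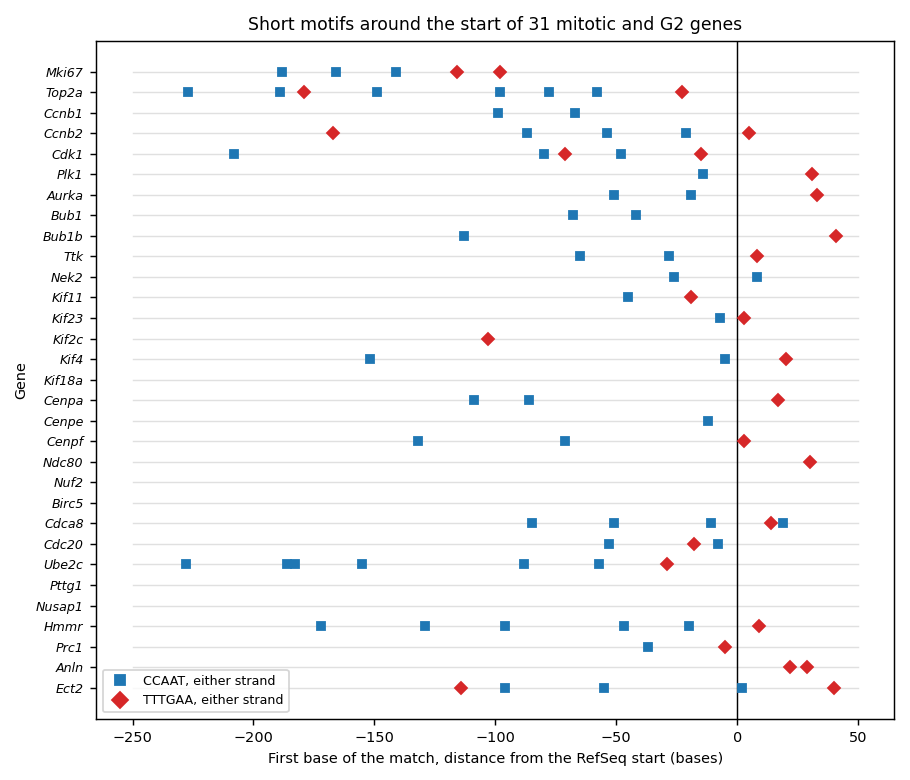
Positions of CCAAT (blue squares) and TTTGAA (red diamonds), on either strand, in the RefSeq start windows of 31 mitotic and G2 genes; the x axis is the distance in bases of a match's first base from the RefSeq start, the y axis lists the genes by function. In 20 of the 31 windows a TTTGAA lies within 50 bases of the start, and CCAAT matches mostly lie upstream of it.

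All 38 members fell in KO against WT at an adjusted p under 0.05, where 28.2% of all tested genes did, and 37 of 38 fell 2-fold or more by that measure, where 9.38% of tested genes did. Because the list was chosen with earlier results known, these shares are given as a description. The median difference was -2.14, the largest fall that of Ccnb1 (-3.03) and the smallest that of Pttg1 (-0.95). The members' median level was 23.2 and 24.0 FPKM in WT, 5.25 and 4.41 in KO, 31.3 in HET and 9.78 in MUT, while the median over all tested genes stayed between 11.9 and 12.4 FPKM in the 6 libraries. For each of the 38 members, both KO libraries lay below both WT libraries. Between replicates a member differed by at most 1.76-fold in WT (Kif18a) and 1.33-fold in KO. The median over the members lay between -2.27 and -1.98 in the 4 pairings of a KO with a WT library. In bulk RNA, fewer cells in G2 and mitosis and less RNA per such cell cannot be told apart.

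**Figure D2:**
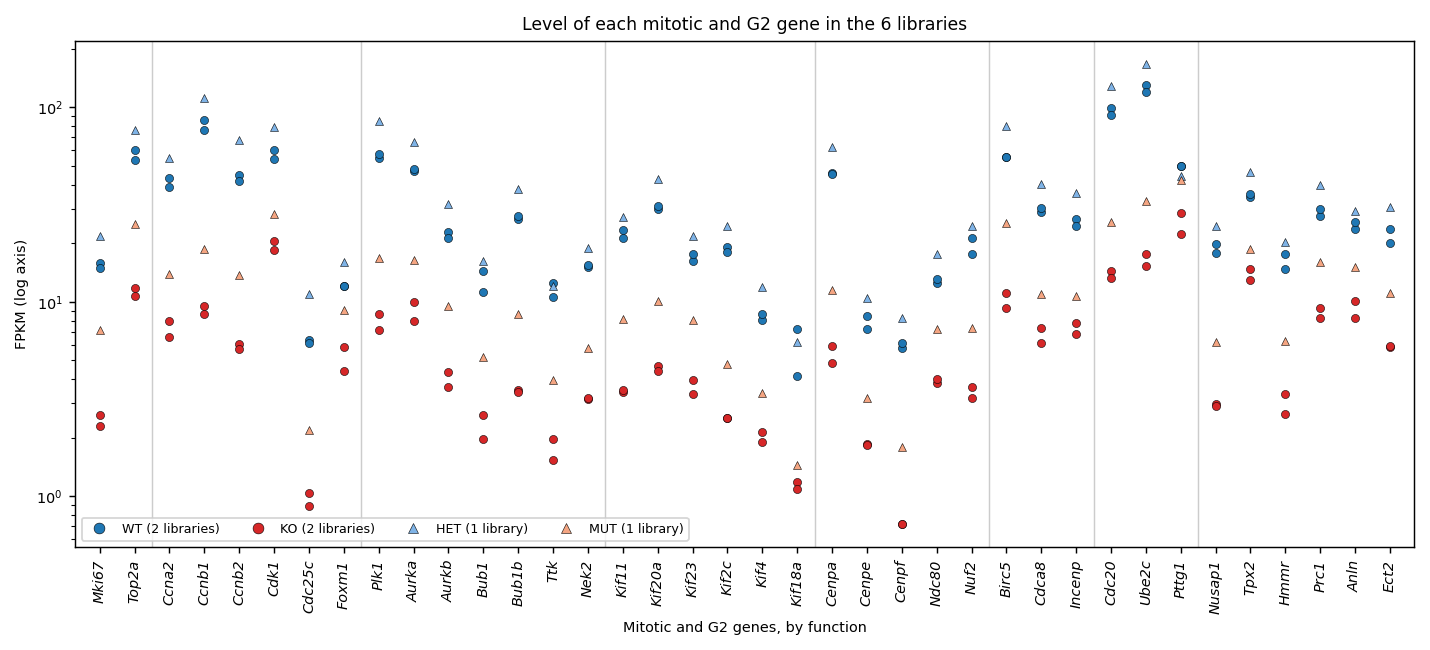
FPKM (y axis, log scale) of each of the 38 genes (x axis, grouped by function, with vertical lines between groups) in each library; circles are the WT and KO libraries (2 each) and triangles the HET and MUT libraries (1 each). For every gene the KO points lie below the WT points, and MUT lies above both KO points.

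Among the cyclins, Cdk1 and its activators, the B-type cyclins fell most, and Cdk1 and Foxm1 least. Ccnb1, cyclin B1, which brings Cdk1 into mitosis (ENSMUSG00000041431.16, GRCm38 chromosome 13, 100778650 to 100786570, minus strand, protein-coding), stood at 76.3 and 86.3 FPKM in WT, 9.50 and 8.65 in KO, 111 in HET and 18.7 in MUT. KO thus kept 11.2% of the WT level (log2 difference -3.03, SE 0.10, adjusted p = 1.28e-08), the smallest share of any member. Ccnb2, cyclin B2, stood at 44.7 and 42.0 FPKM in WT, 6.06 and 5.73 in KO, 68.1 in HET and 13.7 in MUT. Ccna2, cyclin A2, which serves both S phase and mitotic entry, stood at 39.1 and 43.2 FPKM in WT, 7.99 and 6.56 in KO, 54.7 in HET and 13.9 in MUT. Their partner Cdk1 (ENSMUSG00000019942.13, chromosome 10, 69335146 to 69352938, minus strand) fell less, from 53.9 and 60.3 FPKM in WT to 20.5 and 18.4 in KO, with 79.3 in HET and 28.3 in MUT. It kept 34.0% of the WT level (log2 difference -1.51, SE 0.10, adjusted p = 9.62e-07) and 35.7% of the HET level. Cdc25c, a phosphatase that activates Cdk1, stood at 6.37 and 6.11 FPKM in WT, 0.89 and 1.04 in KO, 10.95 in HET and 2.18 in MUT. It kept 15.4% of the WT level, less than Ccna2 with 17.7%. Foxm1, a transcription factor of the G2 program, fell least of this group, from 12.1 and 12.0 FPKM in WT to 5.84 and 4.41 in KO (42.5% kept; log2 difference -1.10, SE 0.13, adjusted p = 3.49e-05), with 15.9 in HET and 9.03 in MUT. Its row also names 4933413G19Rik, so the value is not that of Foxm1 alone.

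The unequal fall of the cyclins and Cdk1 shows within each library. The ratio of Ccnb1 to Cdk1 FPKM was 1.42 and 1.43 in WT, 1.40 in HET, 0.46 and 0.47 in KO and 0.66 in MUT. The ratio of Ccnb2 to Cdk1 was 0.83 and 0.70 in WT, 0.86 in HET, 0.30 and 0.31 in KO and 0.48 in MUT, and that of Ccna2 to Cdk1 was 0.72 in both WT libraries, 0.69 in HET, 0.39 and 0.36 in KO and 0.49 in MUT. In each case all 3 vehicle libraries lay above all 3 libraries with 4OHT, and MUT lay nearest to the vehicle libraries among the latter. These ratios and those below were chosen after the values were seen and were not tested.

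**Figure D3:**
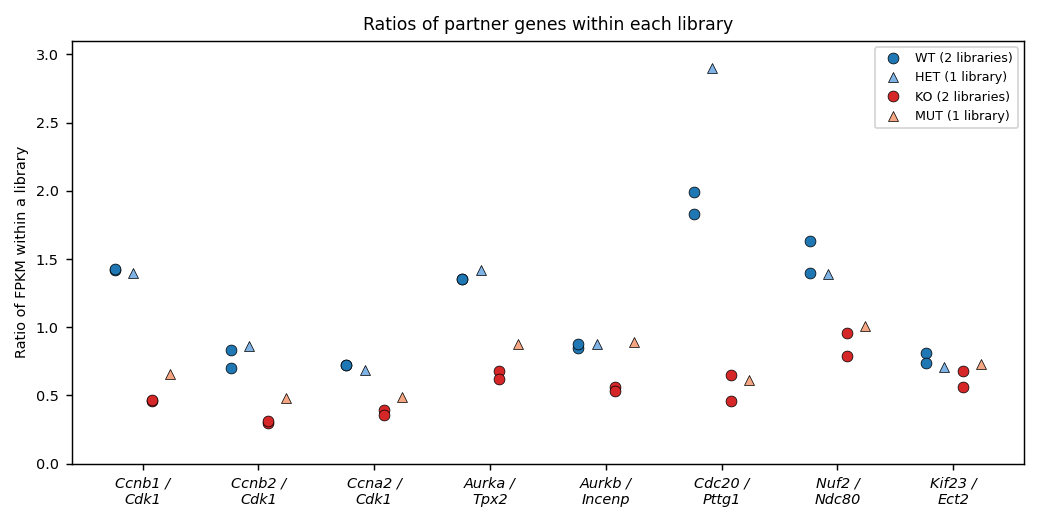
Ratio of FPKM between partner genes within each library (y axis) for 8 gene pairs (x axis); circles are the WT and KO libraries (2 each) and triangles HET and MUT (1 each). The ratio of Ccnb1 to Cdk1 is between 1.40 and 1.43 in the vehicle libraries and between 0.46 and 0.66 after 4OHT, while Kif23 to Ect2 overlaps between treatments.

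In KO the mitotic kinases were the most even of the groups with 5 or more members: the 7 kept 12.8% to 20.9% of the WT level, and their log2 differences had an SD of 0.28. In MUT they kept 19.7% to 33.1% of the HET level with an SD of 0.33, against 0.30 for the kinesins and 0.31 for the spindle and cytokinesis genes, so there they were not the most even. Plk1, which drives mitotic entry and centrosome maturation (ENSMUSG00000030867.7, chromosome 7, 122159439 to 122169873, plus strand), stood at 54.6 and 57.7 FPKM in WT, 8.67 and 7.15 in KO, 85.0 in HET and 16.7 in MUT (log2 difference in KO -2.68, SE 0.11, adjusted p = 3.2e-08). Bub1b, which encodes the checkpoint protein BubR1, stood at 26.5 and 27.7 FPKM in WT, 3.51 and 3.44 in KO, 37.8 in HET and 8.60 in MUT. Aurka, the spindle pole kinase, and Aurkb, the kinase of the chromosomal passenger complex, kept 18.9% and 18.1% of the WT level in KO. The checkpoint kinases Bub1 and Ttk kept 17.8% and 15.2%, and Nek2, which acts in centrosome separation, 20.9%.

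Among the anaphase regulators, a pair fell steeply and 1 did not. Ube2c, the ubiquitin-conjugating enzyme of the anaphase-promoting complex and the member with the highest WT level, stood at 129 and 119 FPKM in WT, 17.5 and 15.3 in KO, 167 in HET and 33.1 in MUT. Cdc20, an activator of that complex, stood at 98.9 and 91.5 FPKM in WT, 14.4 and 13.3 in KO, 128 in HET and 25.7 in MUT. Pttg1, which encodes securin, the inhibitor of separase (ENSMUSG00000020415.16, chromosome 11, 43420250 to 43426251, minus strand), stood at 49.7 and 49.9 FPKM in WT, 22.4 and 28.7 in KO, 44.2 in HET and 42.4 in MUT. It kept 51.2% of the WT level in KO (log2 difference -0.95, SE 0.12, adjusted p = 7.34e-05) and 95.8% of the HET level in MUT, the highest share of any member on both sides. The ratio of Cdc20 to Pttg1 was 1.99 and 1.83 in WT, 2.90 in HET, 0.65 and 0.46 in KO and 0.61 in MUT.

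Among the 6 kinesins, motors that move along microtubules, KO kept 13.6% to 24.3% of the WT level. Kif2c, which depolymerizes microtubules at centromeres, kept the least, with a fall from 18.6 ± 0.83 FPKM in WT (SD, n = 2) to 2.51 and 2.53 in KO (log2 difference -2.48, SE 0.10, adjusted p = 3.52e-08), with 24.4 in HET and 4.79 in MUT. On the log2(FPKM + 1) scale Kif20a fell slightly more, by 2.51. Kif11, which pushes spindle poles apart, stood at 21.3 and 23.4 FPKM in WT, 3.45 and 3.50 in KO, 27.3 in HET and 8.15 in MUT. Kif20a and Kif23, motors of the central spindle and cytokinesis, kept 14.9% and 21.6% of the WT level. The chromosome-bound Kif4 kept 24.3%. Kif18a, which dampens chromosome movements, kept 20.0%, with an uneven WT pair of 4.13 and 7.26 FPKM against 1.18 and 1.09 in KO, 6.20 in HET and 1.45 in MUT.

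In the kinetochore and centromere group the spread was wider. Cenpa, the histone H3 variant that marks centromeres, stood at 45.8 and 45.6 FPKM in WT, 5.89 and 4.85 in KO, 62.3 in HET and 11.5 in MUT (log2 difference in KO -2.88, SE 0.11, adjusted p = 2.1e-08). Cenpf, a large protein of the outer kinetochore, kept 12.2% of the WT level in KO, at 0.72 FPKM in both KO libraries against 5.75 and 6.10 in WT. Its log2 difference of -2.01 understates this ratio because the KO level is under the added value of 1 FPKM. Ndc80 and Nuf2, which together bind microtubules in the same complex, kept 30.5% and 17.6%. Ndc80 stood at 12.5 and 13.1 FPKM in WT, 3.81 and 4.02 in KO, 17.6 in HET and 7.20 in MUT. The kinetochore motor Cenpe kept 23.6%. The chromosomal passenger subunits showed a like order: Birc5, which encodes survivin, kept 18.3%, Cdca8, which encodes borealin, 22.6%, and the scaffold Incenp 28.6%. The ratio of Aurkb to its scaffold Incenp was 0.85 and 0.88 in WT, 0.56 and 0.53 in KO, 0.88 in HET and 0.89 in MUT, so here MUT stood with the vehicle libraries and only KO lay apart.

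The spindle assembly and cytokinesis genes kept the most, with a median of 28.7% of the WT level in KO, against 18.2% over all 38 members. Tpx2, which activates Aurka on spindle microtubules, stood at 34.7 and 35.7 FPKM in WT, 14.7 and 12.9 in KO, 46.7 in HET and 18.6 in MUT (39.2% kept in KO; log2 difference -1.29, SE 0.10, adjusted p = 2.46e-06). Anln, the contractile ring protein anillin, kept 37.3%, Prc1, which bundles the central spindle, 30.4%, and Ect2, the exchange factor that starts furrowing, 27.0%. Nusap1 and Hmmr, microtubule-binding spindle proteins, kept 15.6% and 18.6%, so the group was not uniform. The ratio of Aurka to Tpx2 was 1.35 in both WT libraries, 1.42 in HET, 0.68 and 0.62 in KO and 0.88 in MUT. The remaining members, the proliferation marker Mki67 and the DNA topoisomerase Top2a, kept 15.9% and 19.7% of the WT level in KO and 32.6% and 32.9% of the HET level in MUT.

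**Figure D4:**
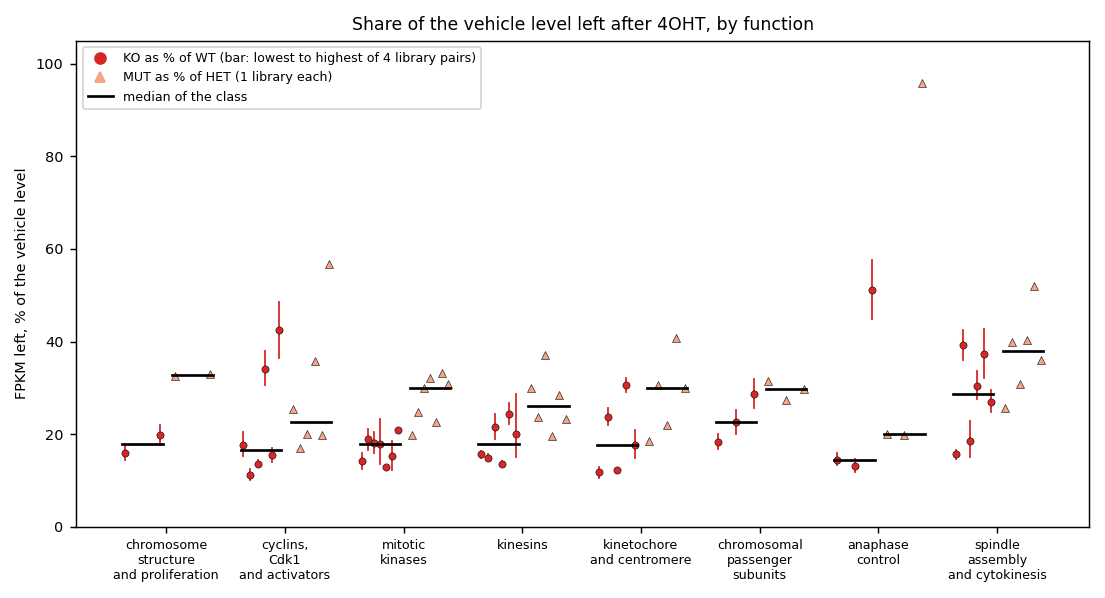
Share of the vehicle level left after 4OHT (y axis, percent of FPKM) for the 38 genes by function (x axis). Red circles are KO as a percent of WT, with bars from the lowest to the highest of the 4 library pairs, orange triangles are MUT as a percent of HET (1 library each), and black lines are group medians; the kinases lie between 12.8% and 20.9% in KO, whereas Pttg1 stands at 51.2% in KO and 95.8% in MUT.

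The fall was thus uneven beyond the error of single genes. Over the 38 members the log2 differences in KO had an SD of 0.51 and quartiles of -2.37 and -1.64, while the median SE of a single difference was 0.11. The log2 ratio of KO to WT had a Spearman rho of -0.16 with the WT level across the 38 members, which share libraries and are not independent. The rows of 11 members span another protein-coding gene of GENCODE M21 (Ccna2, Cdc25c, Foxm1, Aurka, Kif20a, Kif4, Kif18a, Cdc20, Nusap1, Prc1 and Anln, the last with 11 such genes), and whether fragments of those genes enter the values was not tested. The other 27 members had a median of -2.19 and the 11 a median of -1.88; the SD over genes was 0.51 and 0.52.

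MUT and HET have 1 library each, so their difference has no replicate error of its own and is given here as a description. All 38 members were lower in MUT than in HET, and 35 of 38 were lower by 2-fold or more, where 8.77% of all tested genes were. The exceptions were Pttg1 (-0.06), Foxm1 (-0.76) and Anln (-0.90). The median difference was -1.62, with a median of 29.9% of the HET level left. The order of the members was similar on both sides: across the 38 members, the KO minus WT and MUT minus HET differences, which share no library, had a Pearson r of 0.89, and across all tested genes 0.87. These are correlations across genes, given as a description. Ccnb1, Cenpa, Ube2c, Plk1 and Cdc20, all among the largest falls in KO, were also among the lowest in MUT, with log2 differences of -2.50, -2.34, -2.30, -2.28 and -2.28.

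Whether the KO and MUT effects were unequal was tested with limma over the 6 libraries, taking HET and MUT to vary like the replicated groups. The KO effect was the more negative for 37 of 38 members; this was so for 46.3% of all tested genes, and for 67.6% of the 1151 genes called at least 2-fold lower in KO. It passed the threshold with the KO effect more negative for 3 members, where 3.07% of tested genes did. An unadjusted p under 0.05 was found for 21 of the 38 members and, in either direction, for 2118 of the 12266 tested genes. The 3 were Pttg1 (difference -0.89, SE 0.21, adjusted p = 0.0434), Kif11 (-0.75, SE 0.18, adjusted p = 0.0447) and Mki67 (-0.76, SE 0.18, adjusted p = 0.0494). With quantile normalization the calls of Kif11 (adjusted p = 0.0525) and Mki67 (adjusted p = 0.0751) were lost. With a pseudocount of 0.1 FPKM that of Pttg1 was lost (adjusted p = 0.0547). All 3 calls were lost without WT 1 (adjusted p = 0.111, 0.0807 and 0.132) and without WT 2 (adjusted p = 0.115, 0.135 and 0.101). With a KO library left out, KO holds 1 library and the spread comes from the WT pair alone, so counts of calls are not given. The same limit holds without WT 1 or WT 2, where the spread comes from the KO pair alone. At the other end, Tpx2 (-0.01, 95% interval -0.41 to 0.38), Incenp (-0.02, -0.43 to 0.39), Cdk1 (-0.05, -0.45 to 0.35) and Cdc25c (0.03, -0.41 to 0.47) had differences near 0, with intervals that still allow effects unequal by about 0.4 on the log2 scale. Cdc25c, the exception to the more negative KO effect, stood at 0.89 and 1.04 FPKM in KO, near the added 1 FPKM. Its value thus depends on the scale: in FPKM it kept 15.4% of the WT level in KO and 19.9% of the HET level in MUT.

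**Figure D5:**
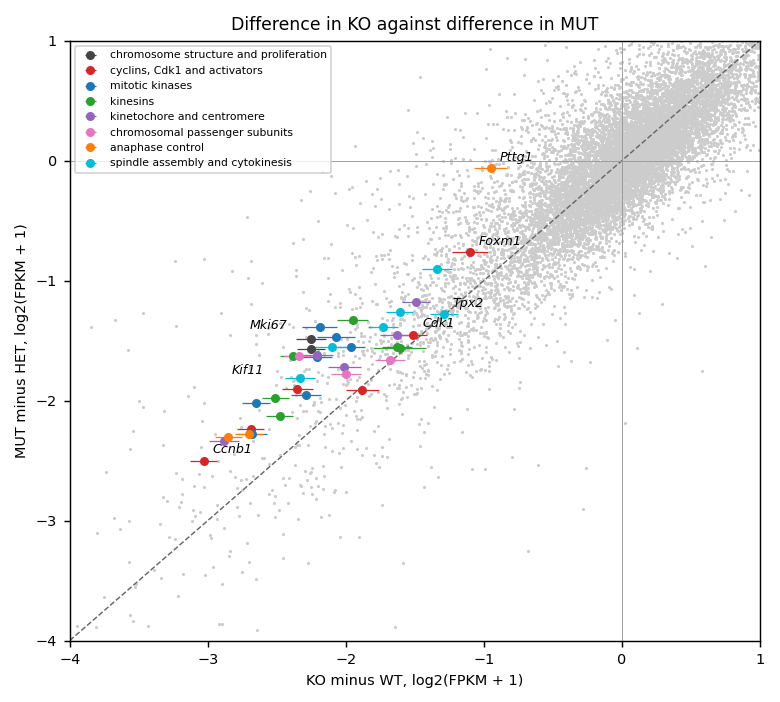
KO minus WT (x axis) against MUT minus HET (y axis), both on the log2(FPKM + 1) scale; coloured points are the 38 members by function, with horizontal bars of 1 limma SE in KO, grey points all tested genes within the plotted range of -4 to 1, and the dashed line marks equal differences. Of the members, 37 lie above the line, Pttg1 at -0.95 in KO and -0.06 in MUT, while Tpx2 and Cdk1 lie close to it.

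Members also differed between groups on the same treatment. With vehicle, HET lay above both WT libraries for 35 of 38 members, where this was so for 41.8% of all tested genes and for 62.3% of the genes called at least 2-fold lower in KO. The median member stood at 135% of the WT level in HET, against 100.5% over all tested genes, from 88.8% (Pttg1) to 175.4% (Cdc25c). The exceptions were Ttk and Kif18a, which lay between the WT libraries, and Pttg1, which lay below both. After 4OHT, MUT lay above both KO libraries for all 38 members, where this was so for 34.6% of all tested genes and for 77.2% of those called at least 2-fold lower in KO. The median member stood at 204.2% of the KO level in MUT, against 97.1% over all tested genes, from 127.2% (Kif18a) to 291.4% (Mki67). With 1 HET and 1 MUT library neither difference was tested, and allele background and library cannot be told apart.

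Other mitotic genes outside the 38 were read from lists drawn up with the design, also with earlier results of these data known. Calls in these lists are read against 28.2% of all tested genes called lower and 29.5% called higher in KO, and 2-fold is counted on the log2(FPKM + 1) scale. All 8 condensin genes fell, 7 of them by at least 2-fold; the call of the remaining Ncaph2 was lost without WT 1 (adjusted p = 0.0657). Ncapd2 had the smallest p of the list, going from 38.2 ± 1.52 to 6.86 ± 0.85 FPKM (SD, n = 2 each). Of 22 further kinetochore and centromere genes 20 fell, among them Spc24, a partner of Ndc80, from 27.3 ± 1.42 to 3.61 ± 0.86 FPKM, and Mis12 rose (log2 difference 0.27, adjusted p = 0.0389), a call lost with any 1 of the 4 libraries left out (adjusted p from 0.0838 to 0.183). All 8 spindle checkpoint genes fell, including Mad2l1 (from 40.1 to 8.41 FPKM), 4 of the 8 by at least 2-fold. In the cohesin and separase list 8 of 10 fell, 3 of them by at least 2-fold; Espl1, which encodes separase, the target of securin, kept 10.6% of the WT level and Cdca5, which encodes sororin, 15.4%. Against these, the anaphase-promoting complex list had a median of -0.14: 6 of 14 fell, 1 rose and 7 were not called, so 6 of 14 lower and 1 of 14 higher stood beside 28.2% and 29.5% of all tested genes. Its largest fall was that of the inhibitor Fbxo5 (31.1% kept), and its rise was that of Cdc27 (log2 difference 0.34, adjusted p = 0.039), a call lost when WT 1 (adjusted p = 0.289) or KO 2 (adjusted p = 0.173) was left out, with no filter on low values (0.171), with quantile normalization (0.0513) and without the intensity trend (0.0521). Without 1 library the calls of Pds5b and Stag1 (cohesin), Cenpc1 (centromere) and Bub3 and Mad1l1 (checkpoint) were lost too. These 5 genes, Mis12, Cdc27 and Ncaph2 were named after their values were seen.

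Genes of the complexes that hold LIN54 and genes of NF-Y moved unequally. Mybl2, the activating subunit that joins the LIN54 complex in S phase, went from 58.8 and 49.1 FPKM in WT to 4.04 and 2.85 in KO (log2 difference -3.64, SE 0.14, adjusted p = 2.31e-08), with 62.2 in HET and 6.51 in MUT, a deeper fall than that of any of the 38 members. Of the 10 genes of that list 6 fell and 4 were not called, and without 1 library the calls of E2f4 and Lin54 were lost. Lin54, the subunit that binds TTTGAA, went from 6.61 to 4.99 FPKM, to 75.5% of the WT level (log2 difference -0.34, limma adjusted p = 0.0345). Lin9 went from 4.58 to 2.23 FPKM, to 48.7% of the WT level (log2 difference -0.79). Of 3 NF-Y subunits Nfyc fell (from 18.3 to 11.8 FPKM), while Nfya, at 14.1 and 12.1 FPKM, and Nfyb were not called. Among 8 tested inhibitors of Cdk1 and of G2 exit 5 rose and 3 fell, beside 29.5% and 28.2% of all tested genes; the rises of Btg2 and Rprm were lost without 1 library. Gadd45b and Cdkn1a, which encodes p21, rose, from 12.2 to 60.0 FPKM and from 287 ± 16.6 to 496 ± 25.1 FPKM; Cdkn1a stood at 248 in HET and 427 in MUT. Wee1, the kinase that holds Cdk1 inactive, fell and kept 46.0% of the WT level. Sfn, which encodes 14-3-3 sigma and is also in the keratinocyte list below, fell and kept 32.6%.

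DNA replication genes fell less deeply than the 38 members. All 24 fell (Rfc3 not without 1 library), 19 of them 2-fold or more by that same scale. Their median was -1.30 in KO and -1.17 in MUT, against -2.14 and -1.62 for the 38 mitotic and G2 genes. Rrm2, a ribonucleotide reductase subunit, went from 135 ± 11.6 to 25.6 ± 0.03 FPKM. By their medians, the lists of other mitotic genes fell no deeper in KO than the replication list. The KO median was -1.22 for condensin and -1.19 for the further kinetochore and centromere genes. It was -0.90 for the spindle checkpoint and -0.64 for cohesin and separase. Differences between the lists were not tested.

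Markers of cell types moved with the same contrast. All 10 pluripotent cell markers fell in KO, and their summed level was 613 to 728 FPKM in WT, 11.3 to 27.2 in KO, 787 in HET and 51.5 in MUT. The sum had the same order of groups as the median mitotic gene, but single markers did not all have it. HET lay above both WT libraries for Pou5f1, Utf1, Tdgf1, L1td1 and Epcam. It lay between them for Nanog, Fgf4 and Esrrb and below both for Dppa5a and Zfp42. Of 10 fibroblast markers 8 fell and 2 were not called, with a summed level of 5800 to 6296 FPKM in WT, 2747 to 2810 in KO, 5682 in HET and 3733 in MUT. Neural markers summed to 144 to 158 FPKM in WT, 41.7 to 55.8 in KO, 175 in HET and 48.7 in MUT, keratinocyte markers to 127 to 130, 32.6 to 33.3, 177 and 16.0, with Sfn alone at 89.97 ± 7.05 FPKM in WT and 29.35 ± 0.33 in KO, and adipocyte markers to 56.0 to 61.0, 29.0 to 30.2, 32.3 and 16.9. All 3 tested members fell in the neural and in the keratinocyte list, and 2 of 3 in the adipocyte list. Macrophage markers summed to 659 to 674 FPKM in WT, 440 to 455 in KO, 811 in HET and 449 in MUT, nearly all of it Cd68, and endothelial markers to at most 7.69 in any library; 2 of 3 tested macrophage and 3 of 4 tested endothelial markers fell (Erg not without 1 library) and Kdr rose. The defining markers Ptprc, Cdh5 and Rbfox3 were under 0.1 FPKM in all 6 libraries. The part of these shifts in the fall of the mitotic genes was not tested.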

How the data were processed

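The members and lists were chosen with earlier results of these data known. Tools named in the submitters' processing notes are Cufflinks 2.2.1, Bowtie2 2.3.0 and TopHat2 2.1.1, and builds named there are mm10 and GRCm38. The annotation, the use of strand and the scaling were not stated. Per the file headers, the authors deposited FPKM for each gene row, written with decimal commas. Low values did not fall on whole-read steps (score 0.18 to 0.403, where 1 is exact), so no reads were recovered, depth is unknown and no count test was run.

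Rows without a name (1021) were left out, and for 314 symbols on several rows the row of highest mean was kept. Genes with at least 1 FPKM in at least 2 of 6 libraries entered the fit as log2(FPKM + 1). The fit used R 4.3.3 and limma 3.58.1 (eBayes with trend, called at adjusted p under 0.05), and tested on simulated data. KO against WT used 4 libraries with 2 residual degrees of freedom; the difference between effects used 4 group means. SDs are over FPKM of 2 libraries. Coordinates are from GENCODE M21 and promoters from RefSeq, GRCm38.p6, 1 window per gene. Alternatives were pseudocount, filters, scaling, row choice, trend, replicate block and leaving out each library. Text names all members and, from each other list, genes of smallest p, plus Mybl2, Cdkn1a and Wee1. Without stated strand, reads of overlapping genes cannot be told apart.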

Additional observations from a re-analysis of the deposited data

Results flagged for a closer look

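The KO and MUT effects differed by limma's test of the difference for 3 members: by -0.89 for Pttg1, -0.75 for Kif11 and -0.76 for Mki67 on the log2(FPKM + 1) scale, with the KO effect the more negative in each. For Pttg1 the levels were 49.7 and 49.9 FPKM in WT, 22.4 and 28.7 in KO, 44.2 in HET and 42.4 in MUT. Kif11 and Mki67 were lower in both contrasts. The MUT effect rests on 1 library a side, and all 3 calls were lost without either WT library.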

How the results depend on the processing

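All 38 members stayed called as lower in KO under each of the 13 alternatives run, with a largest adjusted p of 0.0256 (Kif18a, no filter on low values). Their median difference in KO, -2.14, was -2.44 with a pseudocount of 0.1 FPKM and -2.02 with quantile normalization, and ran from -2.26 to -2.02 with 1 library left out. In the fits with 1 library left out, its group held 1 library and the spread came from the other pair alone. Calls from those fits therefore carry little weight. In MUT against HET, 35 members were at least 2-fold lower under each scaling, filter, row choice and pseudocount. The count of genes whose KO and MUT effects differ, 492, was 0 with no filter on low values (2814 at an unadjusted p under 0.05) and ran from 286 to 1192 with 1 library left out. For members, 3 became 0 with no filter (17 at an unadjusted p under 0.05) and 0 without the intensity trend (20). The count of members also moved in both directions with 1 library left out. The cause was not tested. Counts over all genes at that unadjusted p are not given without the trend. The count with no filter, 2814, is given without the number of genes in that fit. The member counts of 17, 20, 18 and 14 thus have no share of all genes to be read against, and no conclusion is drawn from them. With the replicate number of WT and KO as a block, limma called 7959 genes in KO against WT instead of 7080 and again all 38 members; same-numbered libraries deviated together with r = 0.18 over 12266 genes, and the labels do not say that a number marks a shared source. The MUT and HET libraries have no replicates, and depth, which is unknown, limits the lowest members most.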
